A study of Mus musculus with 6 samples.

Results

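The genes described here were transcripts that WT oocytes already held, mostly at a low or moderate level, and that were at least 3 times as abundant in Bnc1tr/tr oocytes. They numbered 303 of the 17577 genes listed in the deposited tables, or 1.72%. Each was chosen by its own values, in FPKM, the number of sequenced fragments per kilobase of transcript and scaled to the number of fragments mapped. A gene had to reach a mean of at least 1 FPKM in WT and of at least 10 FPKM in Bnc1tr/tr oocytes, a ratio of the Bnc1tr/tr mean to the WT mean of at least 3, and a value in every Bnc1tr/tr library above that in every WT library. The genotype contrast selected the members, so their ratios are given as a description with no test.

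The 6 libraries came from germinal vesicle (GV) oocytes, 3 from Bnc1tr/tr and 3 from WT females, all on the C57BL/6 J strain and aged 12 weeks. Bnc1tr/tr mice carry on both copies of Bnc1 a frameshift deletion that leaves a truncated basonuclin 1, present in every cell of the animal and not only in the oocyte, and WT littermates carry the unchanged gene. Females of both groups received PMSG before oocytes were taken from antral follicles, and by the methods of the study each cDNA was made from a single oocyte with a modified Smart-seq2 procedure. Replicates are numbered 1 to 3 in each group, all values below are in that order, and the study describes its samples as biological replicates analysed in duplicate. Nothing in the sources used here says which mouse each library came from or how duplicates entered the tables, so p-values measure only the spread between these libraries, which may be partly technical.

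A GV oocyte is arrested in the first meiotic prophase. During growth it transcribes and stores the messenger RNAs that later drive maturation and the first cleavages, and near full size its genome falls largely silent, so transcript levels at this stage reflect storage and decay as well as synthesis. Basonuclin 1 is a zinc finger protein known from the basal cells of stratified epithelia and from germ cells.

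Bnc1 itself stood at 9.04, 6.51 and 5.83 FPKM in Bnc1tr/tr and 13.2, 12.5 and 16.2 FPKM in WT oocytes, and was lower in Bnc1tr/tr (log2 fold change -0.89, SE 0.20, limma adjusted p = 0.009, lower in 3 of 3 libraries). The spacing of low FPKM values gave an estimated depth of 13.3 to 17.2 mega fragments in Bnc1tr/tr and 14.9 to 21.9 mega fragments in WT libraries, so that 1 FPKM on a transcript with 1 kilobase of usable length rests on about 13 to 22 fragments. Oocyte markers summed to between 29098 and 30307 FPKM in Bnc1tr/tr and between 30730 and 33653 FPKM in WT libraries, and no member was in a list of markers of any cell type. For the 10560 genes whose mean over the 6 libraries reached 1 FPKM, the median log2 fold change was 0.15 without rescaling, -0.05 when libraries were scaled by median ratios and -0.10 by upper quartiles, while the median of the members went from 2.14 to 1.95 and 1.91.

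The promoter windows of 6 members are shown because they belong to the member with the largest ratio (Gchfr), the member with the highest level (Phlda2), and to the Id and metallothionein families described further on. Each runs from 250 bases before to 50 bases after an annotated transcription start in RefSeq (GRCm38.p6). Capitals mark matches on either strand, and matches that touch or overlap run together. TATAAA is the TATA box near the start of some regulated genes, and CCAAT is the site of the factor NF-Y. The GC box GGGCGG is bound by the Sp1 family, and GGAATG is the site of the TEAD factors, partners of YAP. In the metallothionein genes capitals also mark TGCNCNC, a looser form of the metal response element core TGCRCNC, where R is A or G. It was added after the values had been seen.
Gchfr promoter, chr2:119167538-119167837, plus strand: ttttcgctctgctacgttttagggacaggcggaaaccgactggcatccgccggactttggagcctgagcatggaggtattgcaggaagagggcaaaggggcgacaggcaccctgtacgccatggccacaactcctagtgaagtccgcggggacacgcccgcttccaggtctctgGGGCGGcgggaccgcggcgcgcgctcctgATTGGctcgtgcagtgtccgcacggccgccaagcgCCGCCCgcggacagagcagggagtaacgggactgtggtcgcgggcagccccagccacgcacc
Phlda2 promoter, chr7:143502475-143502774, minus strand: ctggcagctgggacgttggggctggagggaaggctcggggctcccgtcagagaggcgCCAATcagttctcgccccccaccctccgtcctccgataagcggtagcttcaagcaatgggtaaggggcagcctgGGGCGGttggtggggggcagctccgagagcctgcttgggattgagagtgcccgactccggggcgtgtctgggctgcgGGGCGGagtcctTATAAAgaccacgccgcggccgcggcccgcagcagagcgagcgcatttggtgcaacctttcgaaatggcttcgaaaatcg
Id3 promoter, chr4:136143572-136143871, plus strand: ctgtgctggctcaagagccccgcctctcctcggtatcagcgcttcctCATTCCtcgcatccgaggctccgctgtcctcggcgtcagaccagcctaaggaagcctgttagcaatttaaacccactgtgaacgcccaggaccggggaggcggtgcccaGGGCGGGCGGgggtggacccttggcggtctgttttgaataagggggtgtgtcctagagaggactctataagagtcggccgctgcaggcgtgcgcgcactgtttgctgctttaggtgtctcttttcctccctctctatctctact
Id2 promoter, chr12:25096043-25096342, minus strand: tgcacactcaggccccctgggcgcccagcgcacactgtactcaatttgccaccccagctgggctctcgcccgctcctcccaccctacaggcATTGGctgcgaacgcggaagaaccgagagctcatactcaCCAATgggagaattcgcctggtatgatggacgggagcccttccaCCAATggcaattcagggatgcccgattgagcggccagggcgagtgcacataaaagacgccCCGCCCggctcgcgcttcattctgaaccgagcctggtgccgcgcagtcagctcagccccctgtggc
Mt1 promoter, chr8:94178839-94179138, plus strand: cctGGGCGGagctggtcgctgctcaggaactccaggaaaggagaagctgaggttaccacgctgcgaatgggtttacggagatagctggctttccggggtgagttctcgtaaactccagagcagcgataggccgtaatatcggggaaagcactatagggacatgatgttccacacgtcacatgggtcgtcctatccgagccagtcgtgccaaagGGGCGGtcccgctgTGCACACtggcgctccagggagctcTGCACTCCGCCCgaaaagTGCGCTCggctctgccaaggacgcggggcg
Mt4 promoter, chr8:94136954-94137253, plus strand: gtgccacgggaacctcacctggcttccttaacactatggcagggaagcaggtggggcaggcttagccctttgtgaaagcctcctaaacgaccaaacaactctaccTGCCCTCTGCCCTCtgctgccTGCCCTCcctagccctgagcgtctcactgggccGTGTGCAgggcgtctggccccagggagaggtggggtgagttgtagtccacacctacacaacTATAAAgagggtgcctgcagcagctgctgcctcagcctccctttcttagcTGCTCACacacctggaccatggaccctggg

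A TATAAA match began 30 bases before the start of both Phlda2 and Mt4. GC boxes were found in Gchfr, Phlda2, Id2, Id3 and Mt1, with 2 overlapping matches in Id3, and not in the Mt4 window. Mt1 held 3 matches to TGCNCNC and Mt4 held 5. All those of Mt1 also fit the core TGCRCNC, while those of Mt4 that read TGCCCTC or TGCTCAC do not. The counts therefore do not rank the 2 genes by metal response elements. TGCNCNC is short and loose, and 51% of the 32851 windows in the table held it, against 58.5% of the 316 windows of members.

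Windows were found for 243 of the 303 members. TATAAA stood in 12% of member windows, 13.6% of all windows and 7.94% of the windows of the other genes with a Bnc1tr/tr mean of at least 10 FPKM. GGGCGG stood in 52.2%, 35.7% and 60.9%, and CCAAT in 34.8%, 37.4% and 41.2%. The widest gap to those other genes, which were not matched to the members by level, was at the ETS site CCGGAAG. It was held by 8.23% of member windows, 8.86% of all windows and 20.8% of the windows of the other genes. The AP-1 site TGACTCA stood in 6.96%, 5.2% and 3.32%, the cyclic AMP response element TGACGTCA in 4.43%, 1.79% and 3.61%, and the E-box CACGTG in 12.3%, 7.15% and 10.5%. Matches to TAATTG, bound by the oocyte factor NOBOX, were in 9.49% of member windows, 8% of all windows and 5.53% of the windows of the other genes. Of the remaining motifs, GGAATG stood in 12.3%, 14.7% and 11.9%, the NRF1 site GCGCATGC in 3.8%, 2.71% and 6.37%, and the amino acid response element TTGCATCA in 0.949%, 0.895% and 0.768%. These shares are counts of letters, with no test.

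The median of the members' means was 4.53 FPKM in WT and 26.9 FPKM in Bnc1tr/tr oocytes. In WT oocytes their median rank was at the 62.2nd percentile of all listed genes and in Bnc1tr/tr oocytes at the 81.5th. Ratios ranged from 3.002 to 66.0 with a median of 5.10, and 154 members reached a ratio of 5, 62 a ratio of 10, 24 a ratio of 20 and 12 a ratio of 30. Between the lowest Bnc1tr/tr and the highest WT library the median gap was 3.37 times, and the narrowest was 1.08 times. No member's groups overlapped, which the rule requires, and 32.7% of all tested genes had such a gap in the same direction. In WT oocytes 59 members had a mean under 2 FPKM and 64 a mean of at least 10 FPKM, so some of the transcripts were barely held by WT oocytes.

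Together the members held 2.77%, 2.66% and 2.36% of the FPKM total in Bnc1tr/tr libraries and 0.411%, 0.398% and 0.402% in WT libraries. The 10 most abundant accounted for 29.1% of the summed Bnc1tr/tr level. By the limma fit over all tested genes, which called a gene at an adjusted p under 0.05 and a log2 fold change beyond 0.5, 302 of the 303 were higher in Bnc1tr/tr, beside 24.1% of all tested genes, a count that the selection fixes and from which nothing is read. The exception was Ccnd3, which encodes cyclin D3, at 22.6, 6.86 and 6.69 FPKM in Bnc1tr/tr and 5.05, 5.05 and 1.72 FPKM in WT oocytes. The mirror rule, with the genotypes exchanged, found 38 genes in the deposited values and was not counted after scaling. Calls in the higher direction were 75.8% of all calls as deposited and 46.8% to 55.5% after scaling, so the balance of directions depends on the scale.

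**Figure D1:**
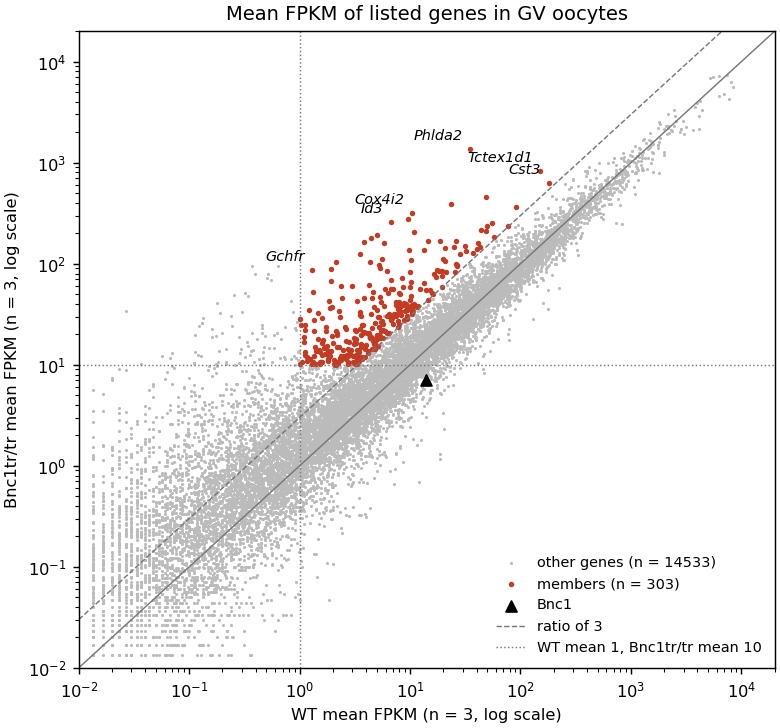
Mean FPKM in WT (horizontal) and Bnc1tr/tr oocytes (vertical), 3 libraries each, on log scales, for genes with both means above 0.01 FPKM. The 303 members (red) lie above the dashed line of a ratio of 3 and inside the dotted limits of 1 and 10 FPKM, and Bnc1 (triangle) lies below the line of equal means.

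At the WT limit the members just inside were Lhx2, whose mean was 1 FPKM, Dmrt2 at 1.02 FPKM and 1700031F05Rik at 1.03 FPKM, and the genes just outside were Arrdc3 (13.7 against 0.99 FPKM), Ntf3 (29.3 against 0.99 FPKM) and Fcgr4 (13.3 against 0.97 FPKM, Bnc1tr/tr first). At the Bnc1tr/tr limit Galnt9, Zfp707 and Rcsd1 lay just inside, at 10.01 against 2.10 FPKM, 10.1 against 2.12 FPKM and 10.1 against 2.75 FPKM, and Rap2a, Klf10 and Cstl1 just outside, at 9.85 against 1.24 FPKM, 9.80 against 1.34 FPKM and 9.73 against 1.01 FPKM. At the ratio limit Slc31a2, Ccdc113 and Fancb had ratios of 3.002, 3.003 and 3.02, and Dtd1, 9930012K11Rik and LOC108168771 each had a ratio of 2.98.

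Of the members, 214 were sorted into 17 groups by the known role of the gene, after their names had been seen. The other 89 had unsure or varied roles, and 25 members in all carried only a provisional clone or model name.

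**Figure D2:**
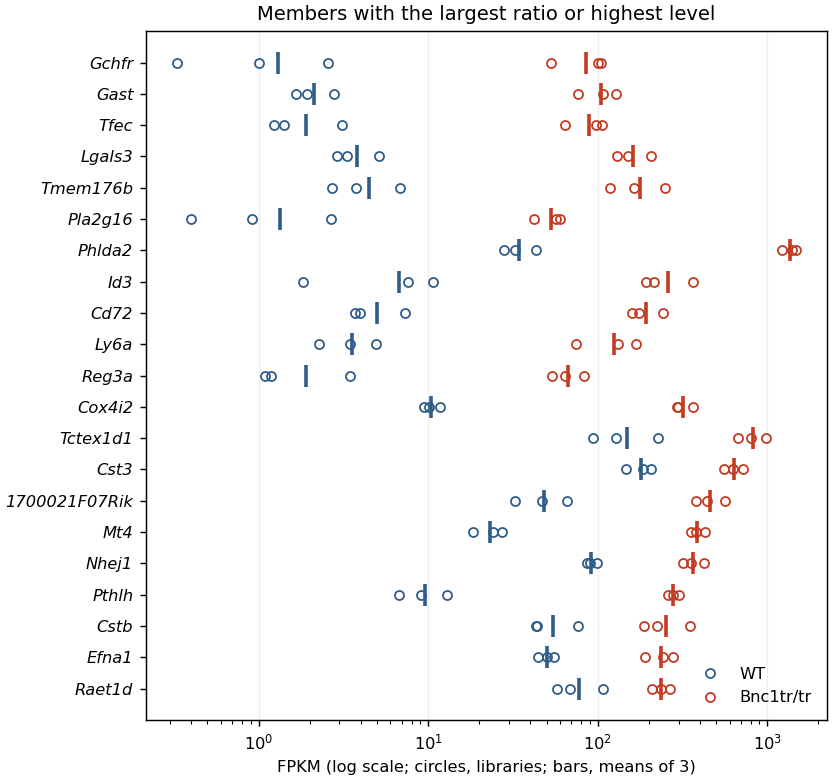
FPKM of the members with the 12 largest ratios and the 12 highest Bnc1tr/tr means, in each library (circles) and as the mean of 3 (bars), on a log scale. The WT libraries (blue) lie to the left of the Bnc1tr/tr libraries (red) for every gene, as the rule requires, and the gap is widest for Phlda2, whose lowest Bnc1tr/tr library stood 28.3 times above its highest WT library.

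The most abundant member was Phlda2, a maternally expressed imprinted gene whose pleckstrin homology protein restrains placental growth. It was measured at 1470.2, 1396 and 1222 FPKM in Bnc1tr/tr and 28.2, 32.4 and 43.1 FPKM in WT oocytes, a rise of the mean from 34.6 ± 7.71 to 1363 ± 127 FPKM (SD, n = 3 each, as for every mean below). That Bnc1tr/tr mean placed it at the 99.7th percentile of all listed genes. Plac1, an X-linked gene of the placenta and also of oocytes, stood at 173, 238 and 214 FPKM in Bnc1tr/tr and 10.3, 11.6 and 10.6 FPKM in WT oocytes, with WT libraries that differed by little. Rtl8a, a retrotransposon-derived gene of the same group, had a ratio of 3.27, but 87.8% of the 31-base words that make up its transcript also occur in Rtl8b, so reads could be split between the copies.

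Secreted signals made up 15 members, with a median ratio of 7.59. Gast, the precursor of the stomach hormone gastrin, was at 129, 108 and 76.6 FPKM in Bnc1tr/tr and 1.94, 2.79 and 1.67 FPKM in WT oocytes. Pthlh encodes parathyroid hormone-related protein, a signal of cartilage, skin and mammary gland, and was measured at 299.9, 259.9 and 278 FPKM in Bnc1tr/tr and 12.9, 9.05 and 6.75 FPKM in WT oocytes. The 3 Bnc1tr/tr libraries lay within 1.15 times of each other for Pthlh and within 1.68 times for Gast.

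Cytokines formed the larger share of these signals. Il23a, the subunit that is particular to interleukin 23, stood at 109, 53.7 and 91.1 FPKM in Bnc1tr/tr and 4.59, 6.09 and 7.81 FPKM in WT oocytes. Ccl2, which attracts monocytes, was at 158, 146 and 103 FPKM in Bnc1tr/tr and 8.16, 7.60 and 24.7 FPKM in WT oocytes, and its WT replicate 3 stood well above the other WT libraries. Ccl11, or eotaxin, had a lower level, 21.8 against 2.12 FPKM, with the lowest value in Bnc1tr/tr replicate 3. The epithelial cytokines Il17c (17.5 against 1.62 FPKM), Il24 (21.5 against 1.72 FPKM) and Tslp (13.6 against 1.79 FPKM) had WT means of under 2 FPKM.

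Il17b rose from 6.23 to 30.6 FPKM. Iltifb, a copy of Il22, had 38.1 against 10.2 FPKM, and 53.6% of its words also occur in Il22, which was listed at 7.52 against 4.53 FPKM. Of the 24 other interleukin genes in the tables, 8 passed the filter on low values, and 5 of those were called higher and 0 lower, beside 24.1% and 7.68% of all tested genes. Il17f, at 121 against 130.2 FPKM, and Il20, at 11.1 against 12.2 FPKM, were among those not called.

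Among the remaining signals, Efna1, the membrane-bound ligand ephrin A1, had the highest WT level of the group, at 279, 243 and 189.5 FPKM in Bnc1tr/tr and 55.5, 50.1 and 44.2 FPKM in WT oocytes. Hamp encodes hepcidin, which lowers iron export, and was at 28.7, 21.9 and 22.8 FPKM in Bnc1tr/tr and 2.58, 2.12 and 6.37 FPKM in WT oocytes. Of its words, 33.7% also occur in Hamp2. Tshb, the beta chain of thyrotropin, was at 6.05, 17.2 and 13.7 FPKM in Bnc1tr/tr and 0.80, 4.11 and 4.23 FPKM in WT oocytes, so its lowest Bnc1tr/tr library stood 1.43 times above its highest WT library. Angptl2 and Lect2, both secreted factors, had ratios of 5.18 and 3.88.

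Receptors, surface proteins and the kinases and phosphatases that act under them numbered 18. Cd72, a B cell inhibitory receptor, was at 176, 242 and 159.8 FPKM in Bnc1tr/tr and 3.69, 3.99 and 7.34 FPKM in WT oocytes. Ly6a, or Sca-1, a marker of blood stem cells, was at 132, 169 and 74.1 FPKM in Bnc1tr/tr and 3.47, 2.27 and 4.90 FPKM in WT oocytes, and 22.1% of its words occur in other genes, Ly6c1 foremost. The order of the Bnc1tr/tr libraries was the same for both genes and for Tmem176b, a membrane protein of dendritic cells and other tissues (165, 250.5 and 118 FPKM in Bnc1tr/tr and 3.77, 2.73 and 6.87 FPKM in WT oocytes), with replicate 2 highest and replicate 3 lowest.

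Transcripts of immune cells themselves also varied among the Bnc1tr/tr libraries. The 14 markers summed to 122.9, 156.3 and 64.7 FPKM in Bnc1tr/tr and 87.0, 98.5 and 67.6 FPKM in WT libraries, and C1qb was the only one above 50 FPKM in all 6 libraries. Without C1qb the other 13 summed to 69.8, 85.7 and 6.06 FPKM in Bnc1tr/tr and 4.23, 3.19 and 2.83 FPKM in WT libraries. Ptprc, the common leukocyte antigen, was at most 0.30 FPKM, while Lyz2 was listed at 5.81, 47.97 and 0 FPKM and Tyrobp at 8.42, 9.80 and 0 FPKM in Bnc1tr/tr and both at 0 in WT libraries. Lyz2 thus made the largest part of the sum in replicate 2. Other markers were highest in replicate 1, such as Fcer1g at 15.05, 11.91 and 0 FPKM and Cd68 at 12.20, 3.64 and 0.96 FPKM in Bnc1tr/tr. Of the 14 markers 8 were tested, 1 (12.5%) called higher and 0 lower, beside 24.1% and 7.68% of all tested genes. The part of such cells in the receptor genes above was not tested.

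Other members of that group spanned a wider range of WT levels. Cxcr3, the receptor of interferon-induced chemokines, was at 171, 167 and 102 FPKM in Bnc1tr/tr and 21.7, 30.3 and 22.3 FPKM in WT oocytes. Raet1d and Raet1e, ligands of the natural killer cell receptor NKG2D, had Bnc1tr/tr means of 237 ± 30.03 and 111 ± 29.6 FPKM against 77.8 ± 26.1 and 19.9 ± 1.90 FPKM. These genes share 67.7% and 59.3% of their words with other transcripts, chiefly each other, so their separate ratios are uncertain. Ackr3, a decoy receptor of CXCL12, rose from 2.17 to 20.4 FPKM, Gfra3, a coreceptor for the GDNF-family ligand artemin, from 1.18 to 10.9 FPKM, and the phosphatase genes Ptpn6 and Ptpro had ratios of 4.21 and 4.39. Ramp2, the partner of the calcitonin-like receptor, rose from 1.16 to 12.02 FPKM, but 74.1% of its words belong also to transcripts of Vps25.

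Transcription factors were 22 members with a median ratio of 5.40. Id3 and Id2 encode helix-loop-helix proteins that lack a DNA-binding region and hold their partners off DNA, and both are known targets of BMP signals. Id3 was at 366, 194 and 215 FPKM in Bnc1tr/tr and 7.61, 10.7 and 1.82 FPKM in WT oocytes, and its values spread in both genotypes. Id2 was at 123, 108 and 82.3 FPKM in Bnc1tr/tr and 3.44, 5.72 and 3.72 FPKM in WT oocytes. Their promoter windows, shown above, both held GC boxes. Of the other family genes, Id1 was below the limits of the rule, at 11.7, 5.09 and 9.59 FPKM in Bnc1tr/tr and 0.75, 0.33 and 0.19 FPKM in WT oocytes, and Id4 was at most 0.68 FPKM in all 6 libraries.

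Tfec, of the MITF family and known from macrophages and pigment cells, had the third largest ratio of all members, at 63.9, 106 and 97.2 FPKM in Bnc1tr/tr and 1.42, 3.09 and 1.24 FPKM in WT oocytes. Dmrt2, a factor of somite patterning, was at 29.8, 30.2 and 24.4 FPKM in Bnc1tr/tr and 0.67, 1.35 and 1.03 FPKM in WT oocytes. Zfp819, a KRAB zinc finger gene, was at 67.7, 53.3 and 58.6 FPKM in Bnc1tr/tr and 2.16, 1.91 and 3.10 FPKM in WT oocytes. In each of these 3 genes every WT library held 3.10 FPKM or less.

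Factors of epithelial and organ development followed. Elf3, an ETS factor of epithelia, was at 176, 136 and 102 FPKM in Bnc1tr/tr and 13.7, 9.70 and 6.27 FPKM in WT oocytes, and Osr2, a factor of palate, limb and kidney, at 85.0, 114 and 92.9 FPKM in Bnc1tr/tr and 3.28, 3.56 and 8.85 FPKM in WT oocytes. The homeobox genes Isl2, Emx1, Lhx2 and Hoxa7 had ratios of 4.64, 5.28, 10.3 and 3.14. Gata3 rose from 7.91 to 41.5 FPKM and Tfap2c, another factor shared with the trophoblast lineage, from 4.86 to 17.96 FPKM. None of the 22 was highest in Bnc1tr/tr replicate 3, while 13 were highest in replicate 1 and 9 in replicate 2. This was not particular to these factors, as replicate 3 was highest in 16.5% of all members. It was highest in no secreted signal, histone and chromatin, transport or placental and imprinted member either.

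Proteins of mucosal defence and protease inhibitors made up 12 members. Lgals3, the sugar-binding galectin 3, was at 206, 152 and 129.8 FPKM in Bnc1tr/tr and 5.16, 3.33 and 2.92 FPKM in WT oocytes. Reg3a, a secreted lectin of gut and pancreas, was at 53.7, 64.4 and 83.6 FPKM in Bnc1tr/tr and 1.09, 3.47 and 1.19 FPKM in WT oocytes, and its neighbour Reg3d, which lies 1844 bases away on chromosome 6, was at 16.5, 33.7 and 33.7 FPKM in Bnc1tr/tr and 2.66, 6.71 and 10.7 FPKM in WT oocytes. Reg1 had a ratio of 3.16. Reg3g of the same family was not called in either direction, at 10.8, 16.1 and 17.5 FPKM in Bnc1tr/tr and 9.61, 17.4 and 21.3 FPKM in WT oocytes.

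Cst3 had the highest WT level of all members and Cstb the sixth highest. Cst3, cystatin C, which blocks cysteine proteases outside the cell, was at 556, 722 and 630.1 FPKM in Bnc1tr/tr and 186, 146 and 207 FPKM in WT oocytes, and Cstb, its intracellular relative, at 187, 352 and 223 FPKM in Bnc1tr/tr and 43.2, 44.1 and 76.8 FPKM in WT oocytes. Spink8 rose from 1.13 to 22.2 FPKM. Gsdmc2 and Gsdmc3, which encode pore-forming gasdermins, lie 12412 bases apart on chromosome 15 and had ratios of 3.58 and 4.88, with 61.6% and 60.5% of their words shared, mostly between them. Gsdmc4 was at 11.7 against 10.6 FPKM, Bnc1tr/tr first.

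Metal binding and redox genes were 11, with a median ratio of 6.14. Metallothioneins are small cysteine-rich proteins that bind zinc and copper, and Mt1 and Mt2 are known to be induced by metal through MTF1. Mt1 was at 96.7, 140.5 and 94.6 FPKM in Bnc1tr/tr and 6.09, 4.66 and 6.08 FPKM in WT oocytes, and Mt4, known from stratified epithelia, at 432, 354 and 378 FPKM in Bnc1tr/tr and 24.1, 18.5 and 27.2 FPKM in WT oocytes. Mt2 was left out by the WT limit alone, at 47.1, 87.8 and 71.2 FPKM in Bnc1tr/tr and 0, 1.38 and 0.27 FPKM in WT oocytes. Mt3 was at most 0.36 FPKM. The promoters of Mt1 and Mt4 are those shown above with their TGCNCNC matches.

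Antioxidant enzymes stood in the same group. Gpx1, the main cytosolic glutathione peroxidase, was at 204, 158 and 139 FPKM in Bnc1tr/tr and 19.0, 19.2 and 17.6 FPKM in WT oocytes. Prdx6, a peroxiredoxin, rose from 8.19 ± 2.80 to 50.3 ± 17.2 FPKM and Nqo1, a quinone reductase, from 6.84 ± 2.63 to 29.1 ± 2.99 FPKM. Nqo1 was the only member among 20 NRF2 targets, of which 18 were tested, 8 (44.4%) called higher and 1 lower, beside 24.1% and 7.68% of all tested genes. Selenos, a selenoprotein of the endoplasmic reticulum, was at 18.8, 17.99 and 8.07 FPKM in Bnc1tr/tr and 2, 2.11 and 0 FPKM in WT oocytes, listed at 0 in WT replicate 3. Slc31a2, a copper transporter, was the member nearest to the ratio limit.

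Mitochondrial respiration and energy genes were 13 members. Cytochrome c oxidase, the last complex of the respiratory chain, has nuclear-encoded subunits that come in ubiquitous and tissue-restricted forms. The 3 members were restricted forms, Cox4i2 of lung and oxygen-sensing cells, Cox7a1 of muscle and Cox8c of testis. Cox4i2 was at 295, 365 and 298 FPKM in Bnc1tr/tr and 11.7, 10.1 and 9.41 FPKM in WT oocytes, Cox7a1 at 43.6, 40.2 and 43.7 FPKM in Bnc1tr/tr and 1.28, 1.74 and 2.54 FPKM in WT oocytes, and Cox8c at 42.4, 43.0 and 52.6 FPKM in Bnc1tr/tr and 4.20, 5.29 and 4.21 FPKM in WT oocytes.

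The ubiquitous counterparts of these 3 subunits had smaller differences. Cox4i1 was at 862, 1269.6 and 1309 FPKM in Bnc1tr/tr and 832, 784 and 996 FPKM in WT oocytes, Cox7a2 at 229.5 against 208 FPKM and Cox8a at 295 against 262 FPKM, Bnc1tr/tr first. In the whole family 3 of the 16 tested subunits (18.8%) were called higher and 1 lower, beside 24.1% and 7.68% of all tested genes. Of the 13 left once the members were set apart, 0 were called higher, a count that the selection partly fixes. The subunit called lower was Cox6a2. The ratios of these 13 lay between 0.56 and 1.32. These 13 also held restricted forms, so not all such forms were raised. Cox6a2 of heart and muscle was at 17.3 against 30.9 FPKM, Bnc1tr/tr first. Cox6b2 of testis was at 91.8 against 76.5 FPKM and was not called. On the per-length FPKM scale, Cox4i2 went from a level of 10.4 FPKM, beside 871 FPKM for Cox4i1, to 319 FPKM beside 1147 FPKM.

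Further enzymes of this group were Gpd2 and Gpd1l, glycerol phosphate dehydrogenases, with ratios of 18.9 and 5.10. Ldha, lactate dehydrogenase A, was at 19.13, 9.88 and 7.22 FPKM in Bnc1tr/tr and 1.48, 2.46 and 0.10 FPKM in WT oocytes, a spread of 2.65 times among the Bnc1tr/tr libraries, and 34.2% of its words occur in other genes. It was the only member of 28 glycolysis and pentose phosphate genes, of which 25 were tested, 9 (36%) called higher and 3 lower, beside 24.1% and 7.68% of all tested genes. Hsd17b10 and Timm10, of the mitochondrial matrix and the inner membrane import pathway, had ratios of 3.41 and 3.27.

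**Figure D3:**
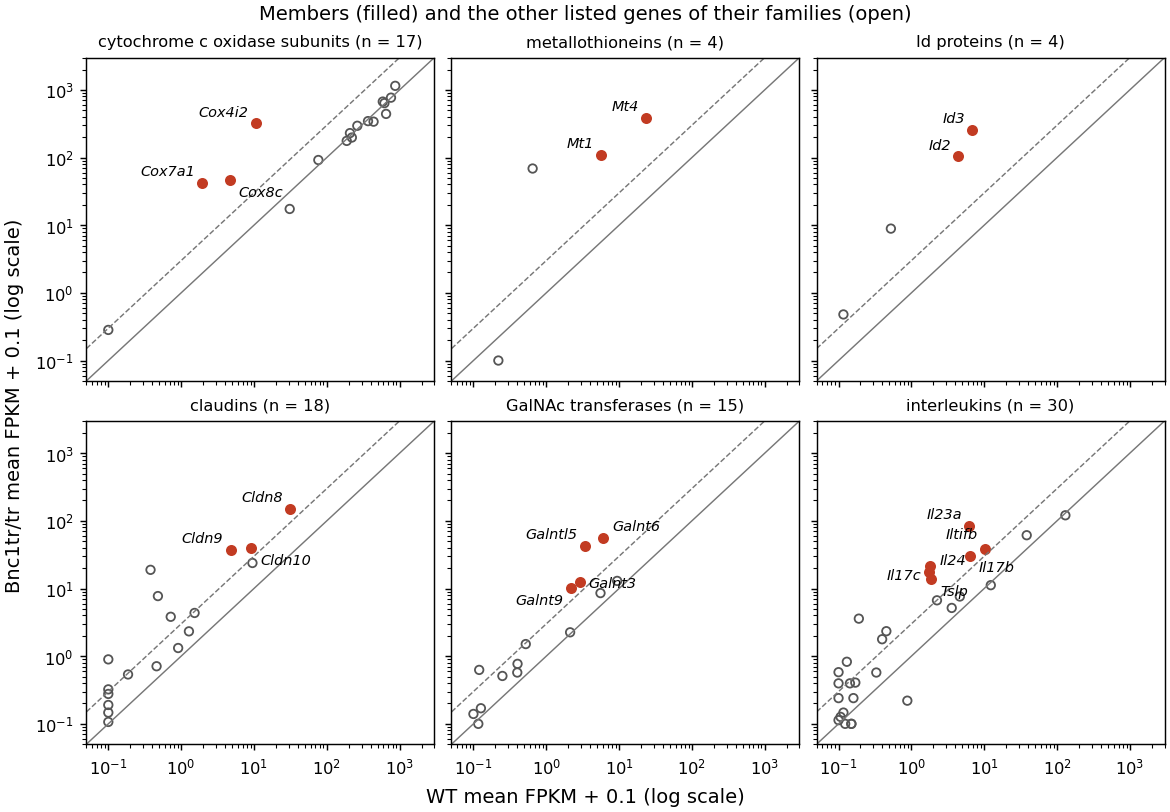
Mean FPKM plus 0.1 in WT (horizontal) and Bnc1tr/tr oocytes (vertical), on log scales, for all listed genes of 6 families, with members filled and named. The solid line marks equal means and the dashed line a ratio of 3. The abundant cytochrome c oxidase subunits lie near the line of equal means, away from Cox4i2, Cox7a1 and Cox8c.

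Lipid metabolism held 19 members with a median ratio of 4.67. Pla2g16, a phospholipase that acts on membrane lipids, was at 42.1, 60.1 and 56.9 FPKM in Bnc1tr/tr and 0.91, 0.40 and 2.69 FPKM in WT oocytes. Sgms2, a sphingomyelin synthase, was at 16.6, 27.2 and 21.6 FPKM in Bnc1tr/tr and 1.38, 1.69 and 0.95 FPKM in WT oocytes, and Hilpda, which inhibits triglyceride breakdown on lipid droplets, at 175, 107 and 143 FPKM in Bnc1tr/tr and 23.6, 22.2 and 15.99 FPKM in WT oocytes. Sptssa, a small subunit of serine palmitoyltransferase, and Ormdl2, an inhibitor of that enzyme, had ratios of 3.94 and 3.37. Apoe, the lipid carrier apolipoprotein E, was at 34.5, 60.8 and 18.5 FPKM in Bnc1tr/tr and 11.7, 11.6 and 9.15 FPKM in WT oocytes. Its Bnc1tr/tr level was highest in replicate 2 and lowest in replicate 3. Immune cell markers differed among themselves in this order, with Lyz2 highest in replicate 2 and Fcer1g and Cd68 in replicate 1. The part of such cells in the level of Apoe was not tested.

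From the list of 25 genes of cholesterol synthesis and uptake, 3 were members. Ebp and Tm7sf2, enzymes of late sterol synthesis, stood at 22.9 against 4.55 FPKM and 11.8 against 2.58 FPKM, Bnc1tr/tr first, and Stard4, a sterol carrier, at 33.7 against 10.3 FPKM. Of this list 18 genes were tested, 11 (61.1%) called higher and 1 lower, with a median log2 fold change of 0.83, beside 24.1%, 7.68% and 0.15 over all tested genes. Exons of Tm7sf2 overlap those of Vps51, listed at 2.67 and 0.797 FPKM, so a share of its reads could belong there.

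One-carbon, amino acid and nucleotide metabolism gave 11 members, among them the largest ratio. Gchfr encodes the regulator that lets tetrahydrobiopterin feed back on GTP cyclohydrolase, and was at 100.2, 104 and 53.1 FPKM in Bnc1tr/tr and 0.33, 1 and 2.57 FPKM in WT oocytes. Its WT values lay near 1 FPKM, where a few fragments decide the ratio, and its lowest Bnc1tr/tr library still stood 20.7 times above its highest WT library. Mat2a, which makes S-adenosylmethionine, and Gnmt, which consumes it, were at 55.1 against 13.8 FPKM and 58.7 against 9.94 FPKM. Shmt2, the mitochondrial serine hydroxymethyltransferase, was at 56.2, 47.6 and 40.4 FPKM in Bnc1tr/tr and 13.6, 11.1 and 6.00 FPKM in WT oocytes and was the only member among 27 genes of the integrated stress response, of which 19 were tested, 3 (15.8%) called higher and 0 lower, beside 24.1% and 7.68% of all tested genes. Sat1, which acetylates polyamines, was at 161, 181 and 216 FPKM in Bnc1tr/tr and 41.7, 60.4 and 71.3 FPKM in WT oocytes.

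Junction, keratin and cytoskeleton genes were the largest group, 23 members with a median ratio of 5.58. Claudins seal tight junctions between epithelial cells, and Cldn8 was at 154, 140.0 and 154 FPKM in Bnc1tr/tr and 36.2, 26.3 and 31.4 FPKM in WT oocytes. Cldn9 and Cldn10 had means of 37.6 against 4.68 FPKM and 39.7 against 9.01 FPKM, Bnc1tr/tr first. Of the 7 other claudins tested, 5 were called higher and 0 lower, where 24.1% and 7.68% of all tested genes were. Krt71 and Krt73, type II keratins of the hair follicle sheath, rose from 1.65 to 14.7 and from 3.52 to 33.5 FPKM. Of the related keratins, Krt72 was not called, at 3.10 against 1.93 FPKM, Bnc1tr/tr first, and Krt75 was at most 0.40 FPKM. Markers of ovarian surface epithelium summed to 66.2, 42.5 and 39.0 FPKM in Bnc1tr/tr and 14.6, 13.8 and 12.9 FPKM in WT libraries, with no overlap. Cdh1 led this sum, at 29.7, 27.7 and 27.7 FPKM in Bnc1tr/tr and 11.4, 12.1 and 11.8 FPKM in WT libraries. Those of granulosa and cumulus cells summed to 49.4, 66.1 and 51.1 FPKM and 39.9, 41.1 and 23.5 FPKM. Cyp19a1, not called in either direction, led that sum, at 27.5, 44.4 and 33.5 FPKM and 23.45, 29.0 and 17.4 FPKM. Of the 15 listed granulosa and cumulus markers, 8 were under 1 FPKM in all 6 libraries, the defining factor Foxl2 among them at 0.03 FPKM or less, and of the 6 tested 3 were called higher and 0 lower, the follicle-stimulating hormone receptor Fshr among those called, at 4.54, 5.83 and 5.37 FPKM in Bnc1tr/tr and 0.31, 0.74 and 0 FPKM in WT libraries. Of the 8 listed surface epithelium markers, 5 were tested, 4 called higher and 0 lower. Both marker counts rest on few genes and stand beside 24.1% called higher and 7.68% lower over all tested genes. The part of such cells in these members was not tested.

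Other genes of that group act inside the cell. Ahnak, a giant scaffold protein, was at 55.7, 54.9 and 56.1 FPKM in Bnc1tr/tr and 4.69, 5.14 and 10.4 FPKM in WT oocytes, within 1.02 times in the 3 Bnc1tr/tr libraries. Triobp and Dpysl3, which organise actin and microtubules, had Bnc1tr/tr means of 82.5 ± 13.9 and 218 ± 19.8 FPKM against 9.89 ± 2.53 and 43.8 ± 5.41 FPKM. Anxa5, the phosphatidylserine-binding annexin, was at 95.5, 107 and 81.3 FPKM in Bnc1tr/tr and 25.3, 22.4 and 31.4 FPKM in WT oocytes, and Anxa4 had a ratio of 4.30. Within the annexin family Anxa7 was not called, at 299 against 259 FPKM, and Anxa6 was called lower, at 5.70 against 13.4 FPKM, Bnc1tr/tr first.

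Ion and solute transport counted 8 members, led by the urea transporter Slc14a2 at 32.2, 41.9 and 35.7 FPKM in Bnc1tr/tr and 1.26, 1.74 and 2.62 FPKM in WT oocytes. Fxyd4 and Fxyd6, small regulators of the sodium pump, had ratios of 8.49 and 5.68, and Atp1b1, a beta subunit of that pump, of 3.07. Among glycosyltransferases, 4 of the 6 members start mucin-type O-glycosylation or resemble the enzymes that do, Galntl5 (42.4 against 3.32 FPKM), Galnt6 (55.8 against 5.88 FPKM), Galnt3 (12.3 against 2.77 FPKM) and Galnt9 (10.01 against 2.10 FPKM). The 3 others of this family that were tested, Galnt1, Galnt11 and Galnt12, were not called in either direction. Over all tested genes 24.1% were called higher and 7.68% lower, so 3 genes set no contrast within the family. Galnt1 lay at the limit, with a log2 fold change of 0.56 and a limma adjusted p of 0.05.

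**Figure D4:**
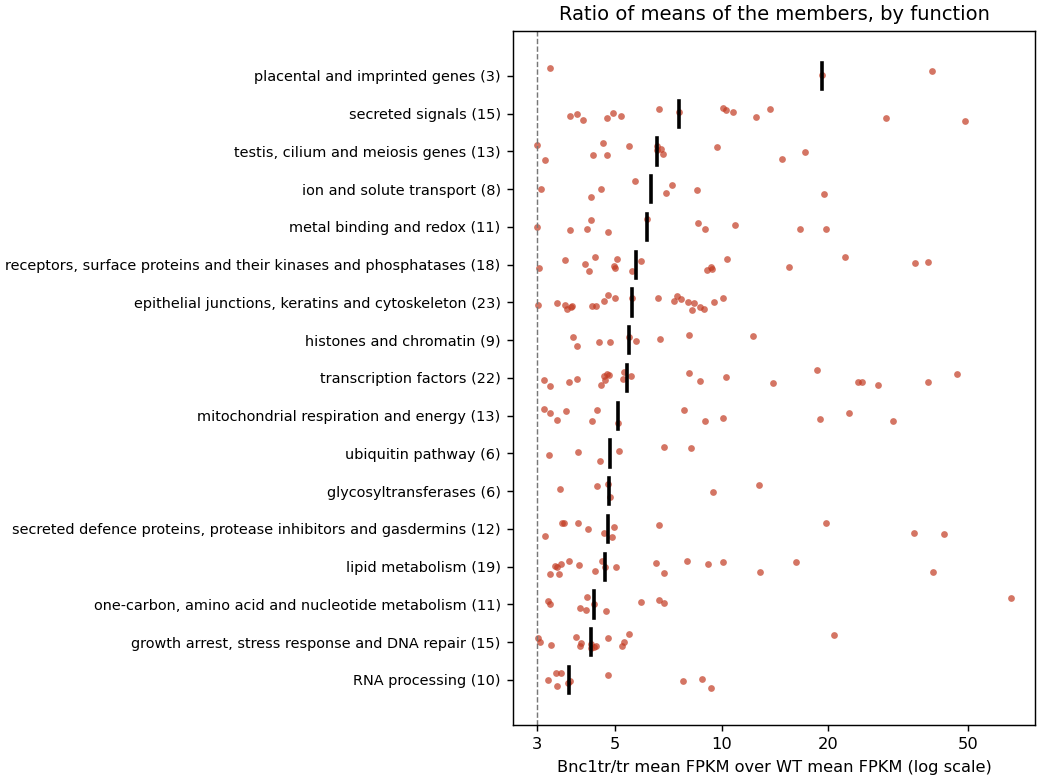
Ratio of the Bnc1tr/tr mean to the WT mean of each grouped member (points), on a log scale, by function, with the number of members in brackets and the group median as a black bar. All points lie at or above the dashed limit of 3, and each group but those of glycosyltransferases, RNA processing, histones, the ubiquitin pathway and junction genes holds a member with a ratio above 15.

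Genes known from testis, cilia or meiosis were 13 members. Tctex1d1, a dynein light chain relative, was the second most abundant member, at 675, 980.0 and 802 FPKM in Bnc1tr/tr and 93.7, 128 and 228 FPKM in WT oocytes. Ccnb1ip1, the crossover factor HEI10, was at 78.4, 95.0 and 101 FPKM in Bnc1tr/tr and 5.77, 5.21 and 4.97 FPKM in WT oocytes. Drc1 and Tekt2, structural proteins of the ciliary axoneme, had ratios of 14.8 and 6.55. Tppp3, a microtubule-binding protein, had a ratio of 9.68. No gene of the list of meiotic prophase was a member, and of its 16 tested genes 2 (12.5%) were called higher and 2 lower, beside 24.1% and 7.68% of all tested genes.

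Histones and chromatin proteins were 9 members. Tet1, which oxidises methylcytosine, was at 18.3, 18.2 and 17.8 FPKM in Bnc1tr/tr and 1.83, 1.36 and 1.22 FPKM in WT oocytes, with the third smallest spread of all members among the Bnc1tr/tr libraries. Daxx, a histone H3.3 chaperone, rose from 4.21 ± 0.67 to 20.4 ± 3.44 FPKM and Cenpt, of the inner kinetochore, from 25.9 ± 9.84 to 98.5 ± 21.0 FPKM.

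The 4 histone members varied together between the Bnc1tr/tr libraries. Hist1h2ba, a testis H2B, was at 25.2, 93.2 and 35.7 FPKM in Bnc1tr/tr and 4.37, 4.93 and 9.77 FPKM in WT oocytes, and Hist1h4d at 12.3, 36.1 and 26.2 FPKM in Bnc1tr/tr and 3.81, 6.20 and 1.12 FPKM in WT oocytes. Hist1h3g and Hist1h4a were likewise highest in Bnc1tr/tr replicate 2 and lowest in replicate 1. Relative to its own mean over the Bnc1tr/tr libraries, the median of these 4 genes deviated by -0.74, 0.68 and -0.02 on the log2 scale. Canonical histone genes resemble each other closely, and 60.2%, 47.9% and 44.1% of the words of Hist1h3g, Hist1h4a and Hist1h2ba occur in other genes. Of the 20 other Hist1 genes tested, 10 were called higher and 0 lower, beside 24.1% and 7.68% of all tested genes. By the methods of the study the cDNA was primed with oligo(dT), so histone transcripts without a poly(A) tail would be largely missed. These values therefore need not follow the total amount of histone messenger RNA.

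**Figure D5:**
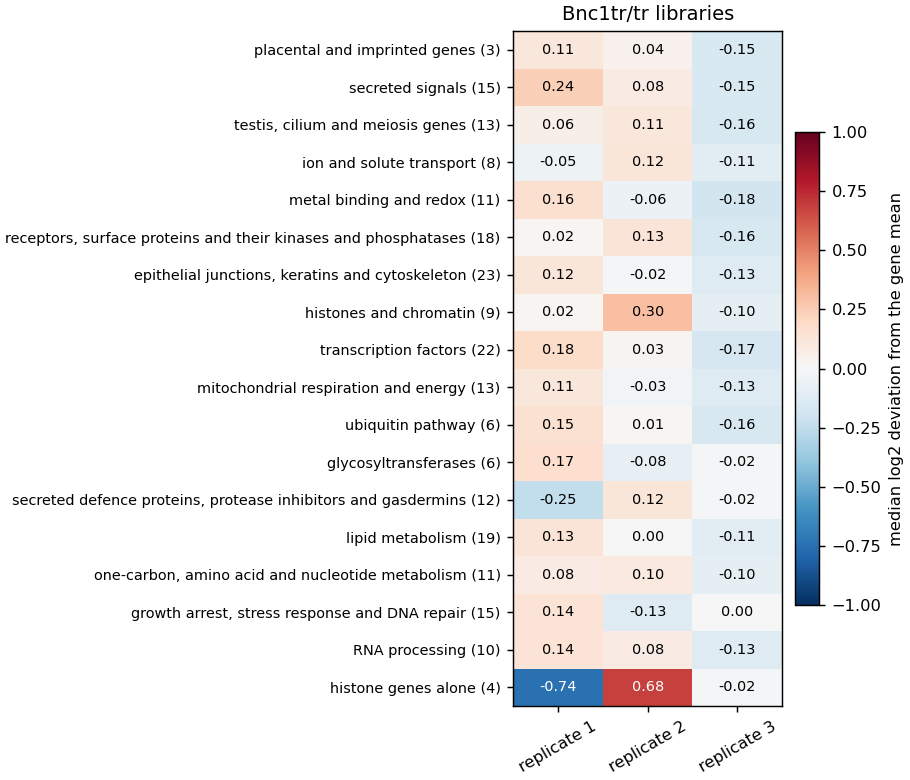
Median log2 deviation of each functional group in the 3 Bnc1tr/tr libraries, from the mean of each gene over them, with the number of members in brackets. Replicate 3 is at or below 0 for every group, and the 4 histone genes differ most between replicates 1 and 2.

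Across all members, 145 were highest in Bnc1tr/tr replicate 1, 108 in replicate 2 and 50 in replicate 3, and 144 were lowest in replicate 3. Among the 5144 other genes with a Bnc1tr/tr mean of at least 10 FPKM the shares highest in replicates 1 to 3 were 37%, 33.2% and 29.8%. The coefficient of variation between the Bnc1tr/tr libraries had a median of 18.9% for members and 12.8% for those other genes, and between WT libraries 27.1% and 16.1%. In 177 members the Bnc1tr/tr libraries lay within 1.5 times of each other, and in 32 they lay more than 2 times apart. The widest spread, 3.80 times, was in Gm15093, all of whose words occur in other genes.

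Members tied to growth arrest, stress or DNA repair numbered 15. Nhej1, of DNA end joining, was at 354, 425 and 319.9 FPKM in Bnc1tr/tr and 98.9, 86.1 and 90.3 FPKM in WT oocytes. It lies 315 bases from Slc23a3, another member, on chromosome 1 (GRCm38.p6). Dusp1, a phosphatase that switches off MAP kinases and an immediate early gene, was at 293, 155 and 181 FPKM in Bnc1tr/tr and 64.7, 57.0 and 25.7 FPKM in WT oocytes. Rgcc, a regulator of the cell cycle, had the largest ratio of the group, at 43.2, 24.2 and 16.6 FPKM in Bnc1tr/tr and 1.65, 2.06 and 0.33 FPKM in WT oocytes. Bard1, the partner of BRCA1, had the smallest spread of all members among the Bnc1tr/tr libraries, with means of 19.13 ± 0.04 FPKM in Bnc1tr/tr and 4.34 ± 0.70 FPKM in WT oocytes.

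Some of these genes were in lists of pathway genes. Dusp1 and Btg2 (19.0 against 4.45 FPKM), an antiproliferative gene, were 2 of the 20 immediate early genes, of which 9 were tested, 6 called higher and 0 lower. Btg2 and Ccng1 (12.03 against 3.66 FPKM), cyclin G1, were 2 of the 18 p53 targets, of which 12 were tested, 9 called higher and 0 lower. Dnajb9, a chaperone cofactor of the endoplasmic reticulum, was at 34.4, 39.8 and 46.4 FPKM in Bnc1tr/tr and 9.43, 9.28 and 8.97 FPKM in WT oocytes, and of its list of 14 genes of the unfolded protein response 11 were tested, 2 called higher and 4 lower. In all, 10 members were in a pathway list. Of the 363 genes of these lists in the tables, 216 were tested, 90 (41.7%) called higher and 17 lower, beside 24.1% and 7.68% over all tested genes.

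The groups of RNA processing, with 10 members and a median ratio of 3.70, and of the ubiquitin pathway, with 6 members and a median of 4.82, held no ratio above 10. Cdc5l, a spliceosome component, rose from 1.19 ± 0.11 to 11.1 ± 0.65 FPKM, though 49.5% of its words occur in other genes, and Msi2, an RNA-binding translation regulator, from 1.70 ± 0.42 to 14.98 ± 1.87 FPKM. Usp4, a deubiquitinase, was at 162, 172 and 148 FPKM in Bnc1tr/tr and 41.6, 39.1 and 42.0 FPKM in WT oocytes, and lies 6222 bases from Gpx1 on chromosome 9.

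Ungrouped members included abundant transcripts with little known role. 1700021F07Rik was at 443, 562 and 379 FPKM in Bnc1tr/tr and 46.9, 32.5 and 65.6 FPKM in WT oocytes. Schip1, a protein that binds the NF2 product schwannomin, was at 178, 152 and 155 FPKM in Bnc1tr/tr and 4.72, 4.79 and 7.98 FPKM in WT oocytes, although 90.5% of its words lie in the joint transcript Iqschfp. Vps4a, an ATPase of the ESCRT pathway, had a high WT level, 43.2 ± 10.1 FPKM, and a Bnc1tr/tr mean of 147 ± 17.6 FPKM.

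Members were spread over the genome. They were found on all autosomes and the X chromosome, from 1.16% of the listed genes of chromosome 5 to 2.93% of those of chromosome 6, where 25 members lie. Of the direct neighbours of members within 100 kilobases, 2.36% (12 of 508) were members too, against 1.74% of the neighbours of other genes. These were 6 pairs, Nhej1 with Slc23a3, Gsdmc2 with Gsdmc3, Gm11757 with Gm11758, Reg3a with Reg3d, Klhl25 with LOC108167440, and Gpx1 with Usp4.

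By type 298 members were protein-coding, 3 were long noncoding RNAs and 2 were pseudogenes. Their longest annotated transcripts had a median of 2162 bases and 48.9% GC (297 members), and those of the other genes with a Bnc1tr/tr mean of at least 10 FPKM 2822 bases and 47.6% GC. In 37 of these 297 members at least 20% of the 31-base words occurred in other genes, and in 23 at least 50%, so that counting could move reads between them. Exons of 17 members overlapped exons of another listed gene by 100 bases or more, on the same or the opposite strand. Reads from those stretches could belong to either gene. Of these members, Cd72 overlaps Tesk1 on the opposite strand, which was listed at 0.46 FPKM in Bnc1tr/tr oocytes. Zmym6 overlaps Tmem35b on the same strand, which was listed at 286 FPKM.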

How the data were processed

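Transcripts of 6 libraries of mouse GV oocytes, 3 Bnc1tr/tr and 3 WT, were analysed. The authors deposited a gene table for each library in FPKM, rounded to 2 decimals, and the submitters' processing notes name HISAT2 2.0.4, Bowtie2 2.2.5, RSEM 1.2.12 and the build GRCm38.p6 without their order. Because only FPKM values were used, no count model was fitted, and depth was estimated from the spacing of low values. FPKM depends on the annotated transcript length and on how reads shared by several genes were divided. Genes were matched by NCBI gene ID, which was found for 17470 genes in RefSeq and restored 25 symbols that had turned into dates.

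Members were found from the deposited values with no rescaling. The members, the gene lists and the groups by role were chosen with earlier results of these data known. The background share came from limma (version 3.58.1, R 4.3.3), fitted to log2(FPKM + 1) of the genes whose mean over all libraries reached 1 FPKM and calling them at a Benjamini-Hochberg adjusted p under 0.05 and a log2 fold change beyond 0.5. On the log2(FPKM + 1) scale the change of low genes is understated. Named were the 12 members with the largest ratio, the 12 with the highest Bnc1tr/tr mean, the 12 with the highest WT mean, the 3 genes on each side of each limit, members in pathway lists, and Bnc1. Other genes were named after their values were seen. Promoter windows came from RefSeq, and transcript length, GC content and shared 31-base words from GENCODE transcripts. The scripts were tested on simulated data. Alternatives changed the scaling, limits, pseudocount, filter, variance model, replicate block and the replicates used. Figures were drawn with matplotlib 3.10.9 in Python 3.11.15.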

Additional observations from a re-analysis of the deposited data

How the results depend on the processing

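The rule found 186 genes with a Bnc1tr/tr mean of at least 20 FPKM and 602 with a ratio of at least 2. Its other limits gave 217 to 418 genes. Scaling by upper quartiles, median ratios or quantiles gave 237, 247 and 241 genes, which held 75.6%, 79.5% and 74.6% of the 303. Leaving out each library in turn gave 299 to 330 genes, with 277 to 289 of the 303 among them. Bnc1tr/tr replicate 3 alone against the WT libraries, an alternative chosen after the data had been seen, gave 277 genes with 251 (82.8%) of the 303 among them, and that library was itself part of the values that chose the members. Genes called higher over all tested genes were 1626 after quantile scaling, against 2547, and 1867 to 2560 when a library was left out. Calls in the higher direction were 75.8% of all calls as deposited and 50.1%, 55.5% and 46.8% after the 3 scalings, so counts of pathway genes called higher depend on the scale (90 as deposited, 73, 77 and 68 after scaling, and 71 to 91 when a library was left out). Members called higher were 299 to 302 across the libraries left out.

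Same-numbered libraries deviated together with correlations of 0.28, -0.03 and 0.12, and 3 of 6 libraries correlated best with their own number, so the replicate numbers were not taken to pair the samples. With the replicate block 2781 genes, 303 members and 96 pathway genes were called higher, and 232 members kept a ratio of at least 3 in each same-numbered pair. Over the 54 genes of the naming rule the block changed no call, and among the members it added that of Ccnd3. Other genes were not followed under the block.

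Over these 54 genes and 13 alternatives, 699 of 702 values kept their direction and their side of the threshold, and 3 kept the direction only (9930012K11Rik without the filter and without Bnc1tr/tr replicate 1, and Zfp707 without the filter). FPKM near 1 rest on few fragments, so large ratios from low WT levels are the least precise. Which mouse each library came from was not given in the sources used here.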

Other observations

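Genes that met every limit but had overlapping groups were 3, each with a mean in Bnc1tr/tr oocytes more than 4 times that in WT. Hist1h2ao, a replication-dependent histone, was at 9.16, 34.7 and 46.4 FPKM in Bnc1tr/tr and 4.98, 9.78 and 2.78 FPKM in WT oocytes. Kera, which encodes the corneal proteoglycan keratocan, was at 11.8, 29.0 and 3.94 FPKM and 2.59, 1.72 and 6.16 FPKM. Gm11237 was listed at 0 in WT replicates 1 and 2 and at 12.5 FPKM in WT replicate 3, the same value as in Bnc1tr/tr replicate 3. In Hist1h2ao the lowest Bnc1tr/tr library was replicate 1, as it was for the 4 histone members.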
